A study of Vitis vinifera with 12 samples.

Results

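The comparison asks which transcripts of the Victoria grape berry stood higher or lower at the 2 middle ages of a 4-age series than at its first and last ages. The tested libraries are the 6 from 50 and 60 days after full bloom, set against the 6 from 40 and 80 days, each age having 3 libraries, lettered a to c, for 12 in all. Of 22580 gene IDs in the table, 14743 entered, chosen by a level of at least 1 FPKM (fragments per kilobase of transcript, scaled to sequencing depth) in at least 3 libraries. All libraries are fruit of Vitis vinifera cultivar Victoria, a white-berried table grape, and no treatment is recorded. The design text names a pair of cultivars, of which only Victoria was analysed here. The labels say that total RNA was extracted separately from biological replicates and then pooled, so it is unsettled whether the 3 libraries of an age are separate fruit samples, and the p-values reflect a spread that may be technical.

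A grape berry grows in a pair of growth phases separated by a lag, and ripening begins at the end of that lag. Ripening brings softening, a strong accumulation of hexoses in the flesh, a loss of malate and a change in the transcript pool. The labels give days but no stage, so none of the 4 ages is placed before or after the onset of ripening here. No gene ID could be matched to a name or product (0 of 22580), so genes are given by ID with no role, and cell type markers could not be examined. In bulk fruit RNA, fewer cells of a type and less RNA per cell cannot be told apart.

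Each gene received a single contrast, the mean of its 50-day and 60-day means minus the mean of its 40-day and 80-day means, on the log2(FPKM + 1) scale. A positive value means a higher level at the middle ages. This contrast is orthogonal to the change from 40 to 80 days and to the change from 50 to 60 days, and the 3 together make up all variation between the ages. Summed over the tested genes, middle against ends accounted for 21.5% of that variation, 80 against 40 days for 65.5% and 60 against 50 days for 13%. The spread between libraries of an age alone would put 3.0% into each. Middle against ends was the largest of the 3 components in 4034 genes, 27.4% of those tested. The share was 57.0% for 80 against 40 days and 15.6% for 60 against 50 days. Some component is the largest in every gene, and 27.4% is below an equal split over the 3. The count alone therefore shows no middle-age pattern. Libraries of 50 days correlated with those of 60 days at 0.954 to 0.967 (Pearson, log2 scale, across genes, which are not independent replicates), and libraries of 40 days with those of 80 days at 0.836 to 0.870.

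At the middle ages, 333 genes were higher and 244 lower than at the ends (limma, Benjamini-Hochberg adjusted p under 0.05 and a difference of at least 1). The higher genes make up 2.26% of the tested genes and the lower genes 1.66%. The changes were moderate. The median difference of the higher genes was 1.32 (quartiles 1.12 and 1.62) and that of the lower genes was -1.23 (quartiles -1.5 and -1.10), while the median over all tested genes was -0.04. Only 35 of the higher and 19 of the lower genes reached a size of 2. The median standard error of the contrast was 0.10 over all tested genes, 0.19 in the higher set and 0.21 in the lower set. The excess of higher over lower genes depended on the minimum size, since with no minimum 2484 genes were higher and 3008 lower. At the threshold, 131 of the 577 called genes had a size under 1.1, and 196 genes with a passing p lay between 0.9 and 1.

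**Figure D1:**
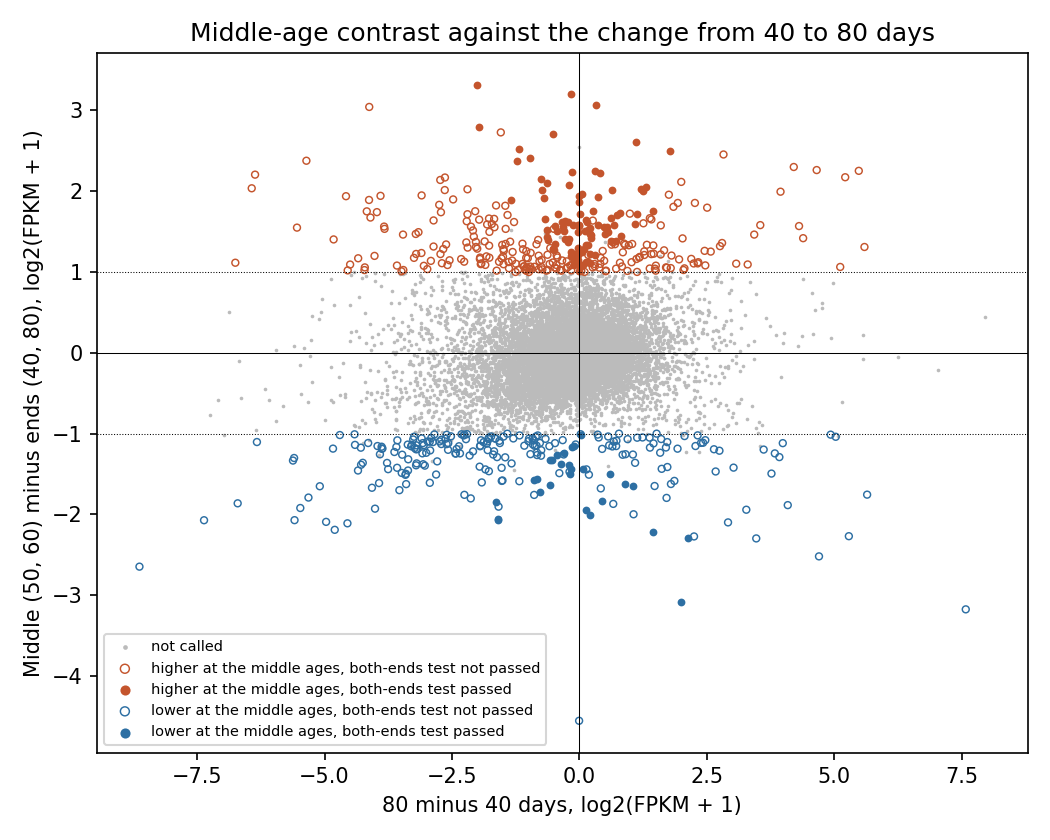
Each point is a tested gene, with the change from 40 to 80 days on the x axis and the middle ages minus the ends on the y axis, both on the log2(FPKM + 1) scale; dotted lines mark a difference of 1. The 100 genes above both ends and the 28 below both ends (filled) mostly lie within 1 of 0 on the x axis (87 and 21 genes), while other called genes (open) spread to both sides. The share of all tested genes within 1 of 0 was not counted.

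The mean of the ends can be low because a single end is low, so the called genes held several kinds of time course. Of the 333 higher genes, 117 stood at least 1 above both ends, 140 at least 1 above 80 days only, and 76 at least 1 above 40 days only. The higher set thus differed more often from 80 than from 40 days, with a median middle-minus-80 difference of 1.54 and a median middle-minus-40 difference of 1.19. The lower set had the opposite build. Of its 244 genes, 41 stood at least 1 below both ends, 145 at least 1 below 40 days only, and 58 at least 1 below 80 days only. Its median difference from 40 days was -2.01 and from 80 days -0.61. In 59 of the lower genes the lowest mean of the 4 ages was at 80 days, and in 5 of the higher genes the highest mean was at 80 days. At the other end, 24 of the higher genes had their highest mean at 40 days and 10 of the lower genes their lowest. The contrast thus also passed genes whose extreme lay at an end.

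**Figure D2:**
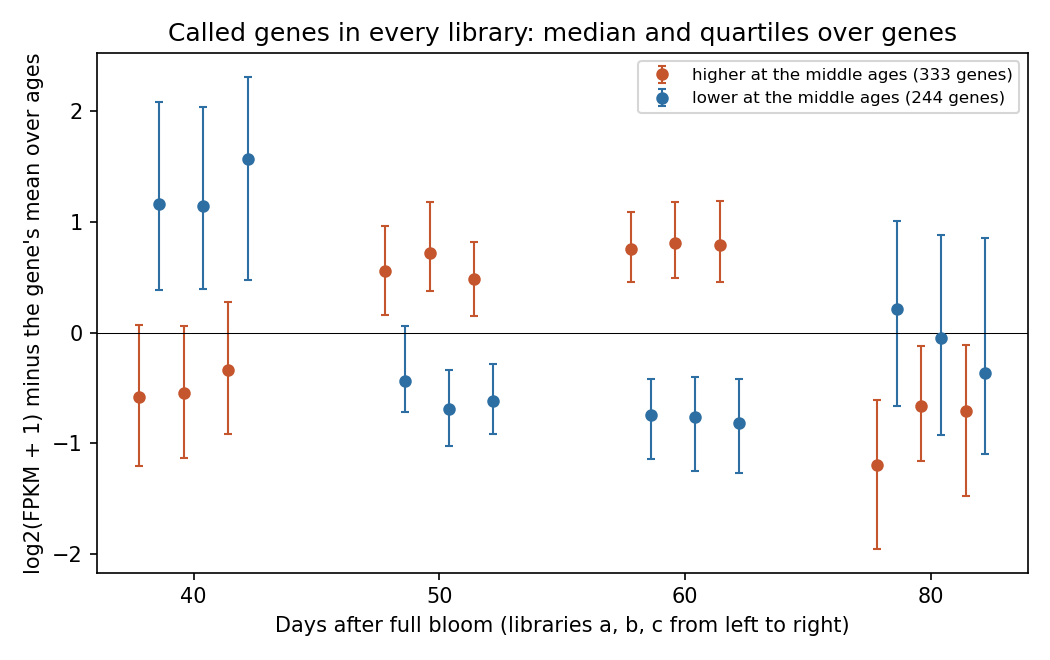
For each library, the median and quartiles over the 333 higher and the 244 lower genes of the log2(FPKM + 1) value minus the gene's own mean over the 4 ages. The higher set has medians of 0.48 to 0.81 in the 6 middle libraries and of -1.20 to -0.34 in the 6 end libraries, and the lower set has its high medians at 40 days (1.14 to 1.57).

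A stricter test asked for a difference from each end, taking the larger of the 2 p-values per gene and a smaller difference of at least 1. By this test 100 genes (0.678% of those tested) were above both ends and 28 (0.19%) below both. In the 100 genes above both ends, the median of the smaller difference was 1.34, and 8 genes reached 2. Their level at 80 days was within 1 of that at 40 days in 87 of the 100, and 62 had their highest mean at 60 days against 38 at 50 days. Of the 100, 14 averaged at least 100 FPKM at the middle ages. A middle library had on average 1455 IDs of that level among all 22580. NewGene IDs are transcripts that the deposited table lists outside the VIT_ numbering of the reference annotation. They were 6 of the 100, beside 2.22% of all tested genes. The 100 genes held 0.692% ± 0.090 of a library's summed FPKM at 50 days and 0.748% ± 0.052 at 60 days. At 40 days the 100 held 0.202% ± 0.053 and at 80 days 0.174% ± 0.038 (SD, n = 3 each). The 28 genes below both ends had a median smaller difference of -1.22. In 18 of them the lowest mean was at 60 days, in 10 at 50 days, and in 21 the level at 80 days was within 1 of that at 40 days. Both groups were chosen on these libraries, so their shares describe them and test nothing. How many of all tested genes lay within 1 between 40 and 80 days was not counted. A small change between the ends is therefore not shown to be particular to these groups.

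Separation of the libraries was also counted. It uses the same libraries and the same split as the calls, so its frequency among called genes describes them and tests nothing. All 6 middle libraries lay above all 6 end libraries in 439 of the tested genes (2.98%), and all 6 lay below in 399 (2.71%). Of the 333 higher genes 124 were separated in this way (37.2%), and of the 244 lower genes 38 (15.6%). Among the 100 genes above both ends 70 were separated, and among the 28 below both ends 16. In the other called genes at least 1 end library lay within the range of the middle libraries or past it in the called direction.

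Among separated genes averaging at least 10 FPKM on their higher side, the largest difference upward was that of VIT_18s0001g06150, which the ID places on chromosome 18. It had 116, 99.6 and 97.8 FPKM at 50 days and 357, 268 and 242 FPKM at 60 days, against 11.6, 9.86 and 57.7 FPKM at 40 days and 3.43, 30.5 and 39.5 FPKM at 80 days. Every middle library was above every end library, and the end libraries themselves ranged widely, with library c highest at 40 days and library a lowest at 80 days. The contrast was 3.20 ± 0.55 SE (limma adjusted p = 0.0012). The gene was above 40 days by 3.11 and above 80 days by 3.28, and it passed the test against both ends (limma adjusted p = 0.0086). The 60-day mean exceeded the 50-day mean by 1.44 ± 0.77 SE, which did not pass (limma adjusted p = 0.22). That SE comes from a spread shared by all 4 ages, including the wide-ranging end libraries. All 60-day libraries (242 to 357 FPKM) lay above all 50-day libraries (97.8 to 116 FPKM). Without library a at 80 days the contrast was 2.70, and without library c at 40 days 3.59.

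VIT_09s0002g00320 (chromosome 9 in the ID) had the next largest difference among these, and it took another course. Its values were 94.8, 177 and 121 FPKM at 50 days and 127, 179 and 163 FPKM at 60 days, against 69.7, 80.1 and 62.6 FPKM at 40 days and 0.571, 7.59 and 4.10 FPKM at 80 days. The groups did not overlap, though the 40-day libraries lay close under the lowest middle library. The contrast was 3.04 ± 0.34 SE (limma adjusted p = 0.00011). It came mainly from the last age, since the middle was 5.10 above 80 days (limma adjusted p = 5.32e-06) and 0.98 above 40 days (limma adjusted p = 0.066). The test against both ends was therefore not passed (limma adjusted p = 0.13), and the smaller difference was also just under the minimum of 1. These p-values use a spread shared by all 4 ages, including the 80-day libraries, which were wide apart on the log2 scale. A model with only 2 means, middle and ends, counts the gap between 40 and 80 days as spread and gave an adjusted p of 0.060 by limma for this gene.

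The largest downward difference among separated genes averaging at least 10 FPKM at the ends was that of VIT_04s0008g01280 (chromosome 4 in the ID). It was nearly silent at the middle ages, with 0.994, 0.357 and 2.95 FPKM at 50 days and 7.20e-07, 0.321 and 0.798 FPKM at 60 days, against 6.96, 6.86 and 5.32 FPKM at 40 days and 46.5, 20.5 and 22.9 FPKM at 80 days. All middle libraries lay below all end libraries, and the 80-day libraries were the highest. The contrast was -3.09 ± 0.28 SE (limma adjusted p = 3.17e-05), with -2.10 against 40 days and -4.08 against 80 days, and both ends passed together (limma adjusted p = 0.0018). In 5 of the 6 middle libraries its value is under the pseudocount of 1, and the size changed with the pseudocount, to -4.43 with a pseudocount of 0.1 and -1.74 with a pseudocount of 5.

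VIT_07s0005g01350 (chromosome 7 in the ID) came next among the separated lower genes of at least 10 FPKM. It had 5.03, 4.38 and 5.05 FPKM at 50 days and 6.89, 5.15 and 3.92 FPKM at 60 days, against 13.5, 9.33 and 17.7 FPKM at 40 days and 88.5, 47.3 and 53.3 FPKM at 80 days. The middle libraries were tightly grouped below the end libraries, and 80 days stood above 40 days. The contrast was -2.30 ± 0.19 SE (limma adjusted p = 1.95e-05), with -1.23 against 40 days and -3.36 against 80 days. The middle ages differed from each other by 0.09 ± 0.26 SE (limma adjusted p = 0.83), and the test against both ends was passed (limma adjusted p = 0.0038).

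**Figure D3:**
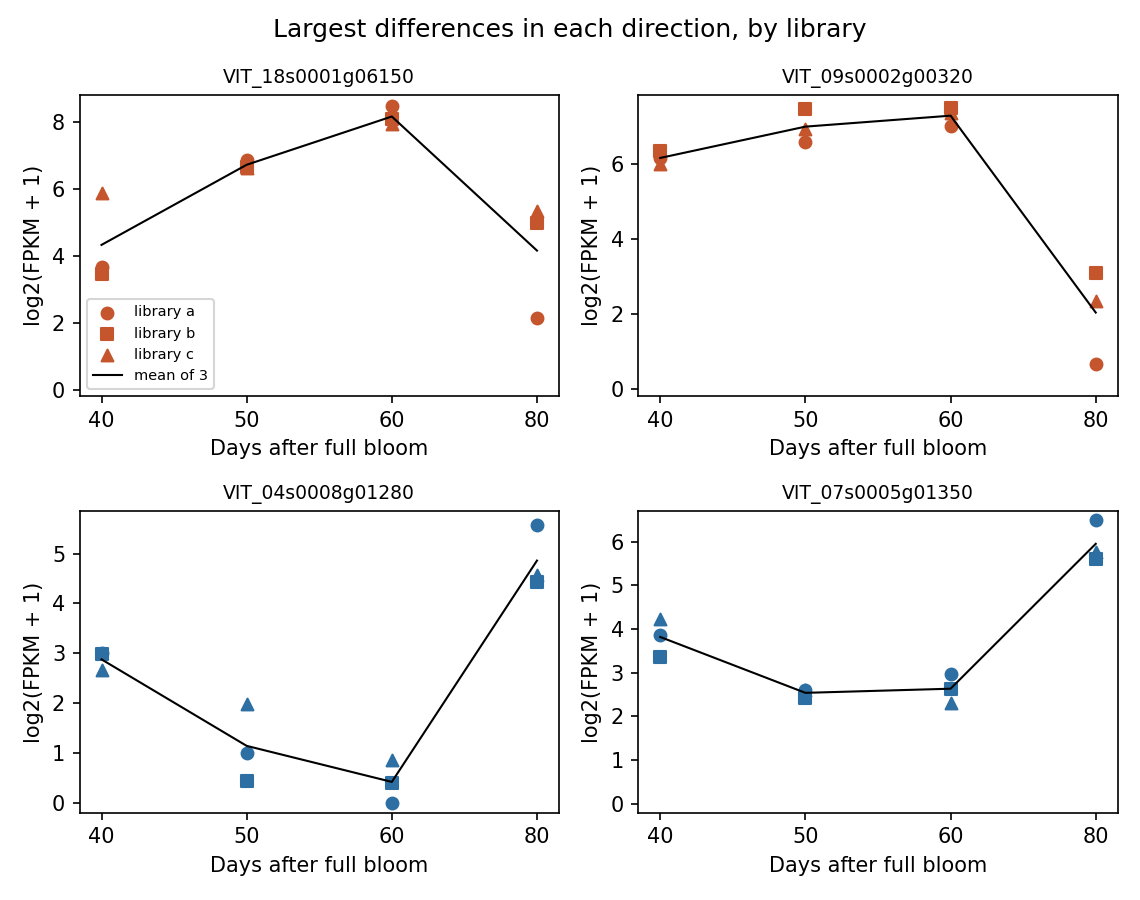
The log2(FPKM + 1) value of each library at each age for the genes with the 2 largest separated differences upward (top, red) and downward (bottom, blue), with the mean of 3 as a line; library a, b and c have their own symbols. VIT_09s0002g00320 lies 0.98 higher at the middle ages than at 40 days and 5.10 higher than at 80 days, whereas VIT_18s0001g06150 is low at both ends.

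Of the genes separated in this way and averaging at least 10 FPKM on their higher side, 94 were higher and 27 lower at the middle ages. In the 12 largest upward, the contrast ranged from 3.20 down to 2.01 and the adjusted p did not exceed 0.0070 (limma). Of these 12, 8 also passed the test against both ends. Their mean level at the middle ages ran from 10.6 to 2925 FPKM. Library a at 80 days was the lowest of its age in 11 of the 12, beside 34.8% of all tested genes. In the 12 largest downward, the contrast ranged from -3.09 to -1.56 (limma adjusted p up to 0.029), and 7 passed against both ends. Library a at 80 days was the highest of its age in 9 of these, beside 43.1% of all tested genes. Library c at 40 days was the highest of its age in 8, beside 43.7%. The genes were ranked by a contrast that includes these libraries, so such counts are description only.

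The most abundant gene above both ends stood seventh among the upward differences of the separated genes averaging at least 10 FPKM. It had 1832, 2328 and 1484 FPKM at 50 days and 1331, 1426 and 1307 FPKM at 60 days, against 253, 273 and 384 FPKM at 40 days and 513, 375 and 258 FPKM at 80 days. The lowest middle library was thus well above the highest end library. Its contrast was 2.25 ± 0.17 SE (limma adjusted p = 1.38e-05), with 2.40 against 40 days and 2.10 against 80 days. The most abundant gene below both ends had 107, 73.7 and 77.6 FPKM at 50 days and 112, 119 and 109 FPKM at 60 days, against 225, 224 and 449 FPKM at 40 days and 356, 218 and 210 FPKM at 80 days. Again no libraries overlapped, and the contrast was -1.44 ± 0.19 SE (limma adjusted p = 0.00032).

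On the linear scale, abundance within the higher set was concentrated in a few genes, whose summed share was 16.4% at 80 days although 8 of these 11 had a lower mean at 80 than at 60 days. Of a library's summed FPKM, the 333 genes held 13.9% ± 2.9 at 50 days and 17.4% ± 0.78 at 60 days, against 4.17% ± 0.58 at 40 days and 17.1% ± 2.7 at 80 days (SD, n = 3 each). Only 11 of them averaged at least 1000 FPKM at the middle ages, and these 11 held 11.6% ± 2.8 at 50 days and 15.1% ± 0.80 at 60 days, against 2.66% ± 0.50 at 40 days and 16.4% ± 2.5 at 80 days. The other 322 held 2.38% ± 0.12 and 2.29% ± 0.048 at 50 and 60 days, against 1.51% ± 0.081 at 40 days and 0.731% ± 0.20 at 80 days.

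**Figure D4:**
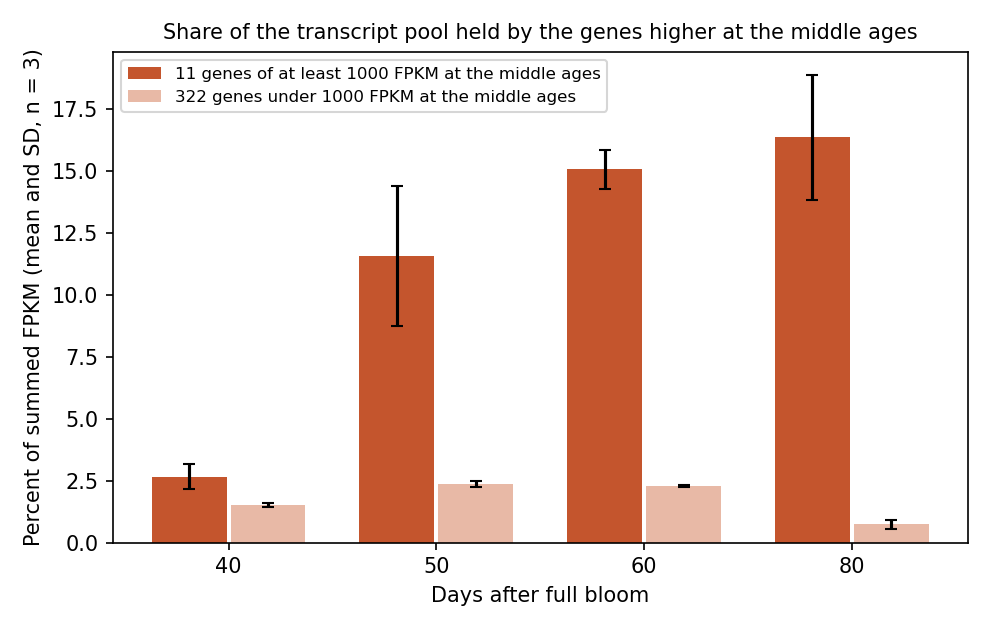
Percent of the summed FPKM of a library held by the 11 abundant genes and by the other 322 genes of the higher set at each age; bars are means of 3 libraries and error bars are SDs. The abundant genes together have a share of 16.4% at 80 days, held mainly by the 2 with the highest means there, while the others have their lowest share there (0.731%).

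The 2 most abundant of these 11 genes averaged 62743 ± 27391 and 48263 ± 7738 FPKM at 50 days and 80026 ± 9513 and 82770 ± 7021 FPKM at 60 days, against 11178 ± 6107 and 5254 ± 1419 FPKM at 40 days and 101341 ± 13830 and 108345 ± 14987 FPKM at 80 days (SD, n = 3). Both had their highest mean at 80 days, and their contrasts, 1.09 and 1.42 (limma adjusted p = 0.012 and 0.00026), rested on the 40-day level, since the middle was 0.56 and 0.78 below 80 days. The gene ranked 3 by abundance had its low point at 80 days and averaged 7059 and 7454 FPKM at 50 and 60 days, against 4161 FPKM at 40 days and 1913 FPKM at 80 days. The gene ranked 4 averaged 4750 and 3304 FPKM at 50 and 60 days, against 4683 and 360 FPKM at 40 and 80 days. Of the 11, 4 had their highest mean at 50 days, 4 at 60 days and 3 at 80 days, and 2 passed the test against both ends. The lower set was far less abundant, at 0.438% ± 0.036 of a library's sum at 50 days and 0.303% ± 0.036 at 60 days, against 1.41% ± 0.16 at 40 days and 0.812% ± 0.10 at 80 days. Only 2 of its genes averaged at least 1000 FPKM at the ends.

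The middle ages were also set against the ends separately. At 50 days 365 genes (2.48%) were higher and 289 (1.96%) lower than the mean of the ends. At 60 days 492 genes (3.34%) were higher and 418 (2.84%) lower. These 2 comparisons use the same end libraries. Within the 333 genes of the higher set, the 60-day mean exceeded the 50-day mean in 188 and was below it in 145, with a median difference of 0.17 (quartiles -0.36 and 0.79). It was at least 1 above in 62 and at least 1 below in 28. Within the lower set the median difference was -0.19, and the 60-day mean was the lower in 147 of 244 genes. The direction of change within the middle thus leaned towards 60 days as the more extreme age in both sets, as a description without a test. How many of all tested genes moved each way from 50 to 60 days was not counted. The lean is therefore not shown to be particular to these sets.

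The sets were described by abundance, which enters the calls through the pseudocount, and by the kind of ID, without a test. The median of the mean level over all libraries was 21.6 FPKM in the higher set and 8.38 FPKM in the lower set, against 13.5 FPKM over all tested genes. NewGene IDs made up 4.50% of the higher set (15 genes) and 1.64% of the lower set (4 genes), against 2.22% of the tested genes. By the chromosome number in the ID, the share called higher ran from 1.01% on chromosome 19 to 3.94% on chromosome 1 (34 of 862 genes). The share called lower ran from 0.788% on chromosome 13 to 2.56% on chromosome 12.

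Neighbouring IDs were called in the same direction in a minority of cases, and no test was made. Neighbours are adjacent among the listed VIT_ IDs that share a chromosome and scaffold field, so numbers absent from the list are skipped. A neighbour was counted once for each called gene beside it, so a pair called alike enters from both sides. On that count, 38 of 439 tested neighbours of genes in the higher set were in it too (8.66%, beside 2.26% of all tested genes). For the lower set it was 18 of 340 (5.29%, beside 1.66%). The pairs called alike held 33 distinct genes of the higher set and 18 of the lower set. Only 2 neighbouring pairs were called in opposite directions, against 19 pairs called higher and 9 called lower together. The median contrast of the neighbours was 0.08 for the higher set and -0.10 for the lower set. No run of lower genes was longer than 2 IDs, while 3 runs of higher genes held 3 or 4. A run of 4 on chromosome 5 held the 2 most abundant genes of the set and a gene averaging 7143 FPKM at 80 days, together with a scarce gene that averaged 7.89 and 2.70 FPKM at 50 and 60 days, against 2.90 and 1.44 FPKM at 40 and 80 days. Another run on chromosome 5 held 3 genes with contrasts of 1.06 to 1.62, of which 2 passed against both ends. A run of 4 on chromosome 8 held contrasts of 1.22 to 3.32. How alike the sequences of neighbours are, and whether reads were shared between them, was not tested, so single values within a run are uncertain.

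The largest contrast of all, 3.32 ± 0.57 SE (limma adjusted p = 0.0012), belonged to the last gene of the chromosome 8 run. It was picked out after its values were seen, because it fell outside the naming rule. It had 500, 490 and 293 FPKM at 50 days and 953, 641 and 558 FPKM at 60 days, against 58.9, 61.1 and 347 FPKM at 40 days and 7.38, 86.4 and 25.7 FPKM at 80 days. Library c at 40 days lay within the range of the middle libraries. The most negative contrast, -4.55 ± 1.47 SE (limma adjusted p = 0.031), likewise outside the rule, belonged to a gene with 5.57, 1.64 and 0.0926 FPKM at 50 days and 1.67, 0.195 and 0.210 FPKM at 60 days, against 0.328, 216 and 387 FPKM at 40 days and 729, 31.0 and 3.72 FPKM at 80 days. Its end libraries differed from each other by more than the contrast, and library a at 40 days and library c at 80 days lay within the middle range.

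Several libraries stood apart from the others of their age within the called sets. Library a at 80 days was the lowest of its age in 246 of the 333 higher genes (73.9%), beside 34.8% of all tested genes, and the highest in 145 of the 244 lower genes (59.4%), beside 43.1%. Over the higher set it lay at a median of -0.55 from the mean of the other 80-day libraries. Library c at 40 days was the highest of its age in 60.4% of the higher and 65.2% of the lower genes, beside 43.7% of all tested genes. Library c at 50 days was the lowest of its age in 58.6% of the higher genes, beside 36.6% of all tested genes, and library a at 50 days the highest in 51.6% of the lower genes, beside 32.7%. Library b at 80 days was the highest of its age in 51.4% of the higher genes, beside 26.5%. Both sets were called with these libraries included, so the shares are description only. The part of these libraries in the counts was examined by leaving each out, and all counts then stayed within 1.5 times. Without library a at 80 days, 281 genes were higher and 203 lower, of which 268 and 188 were among those above, and 79 genes were above and 23 below both ends. Without library a at 80 days and library c at 40 days together the counts were 304 and 183, with 273 and 149 shared, and 85 above and 23 below both ends.

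The ages are unevenly spaced, and the mean of the middle ages is 55 days while that of the ends is 60 days. Setting the middle instead against a straight line in time, drawn through the 40-day and 80-day means and read at 55 days, gave 330 higher and 417 lower genes. Of these, 266 and 215 were among the 333 and 244. The predominance of higher over lower genes was therefore lost with that weighting.

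**Figure D5:**
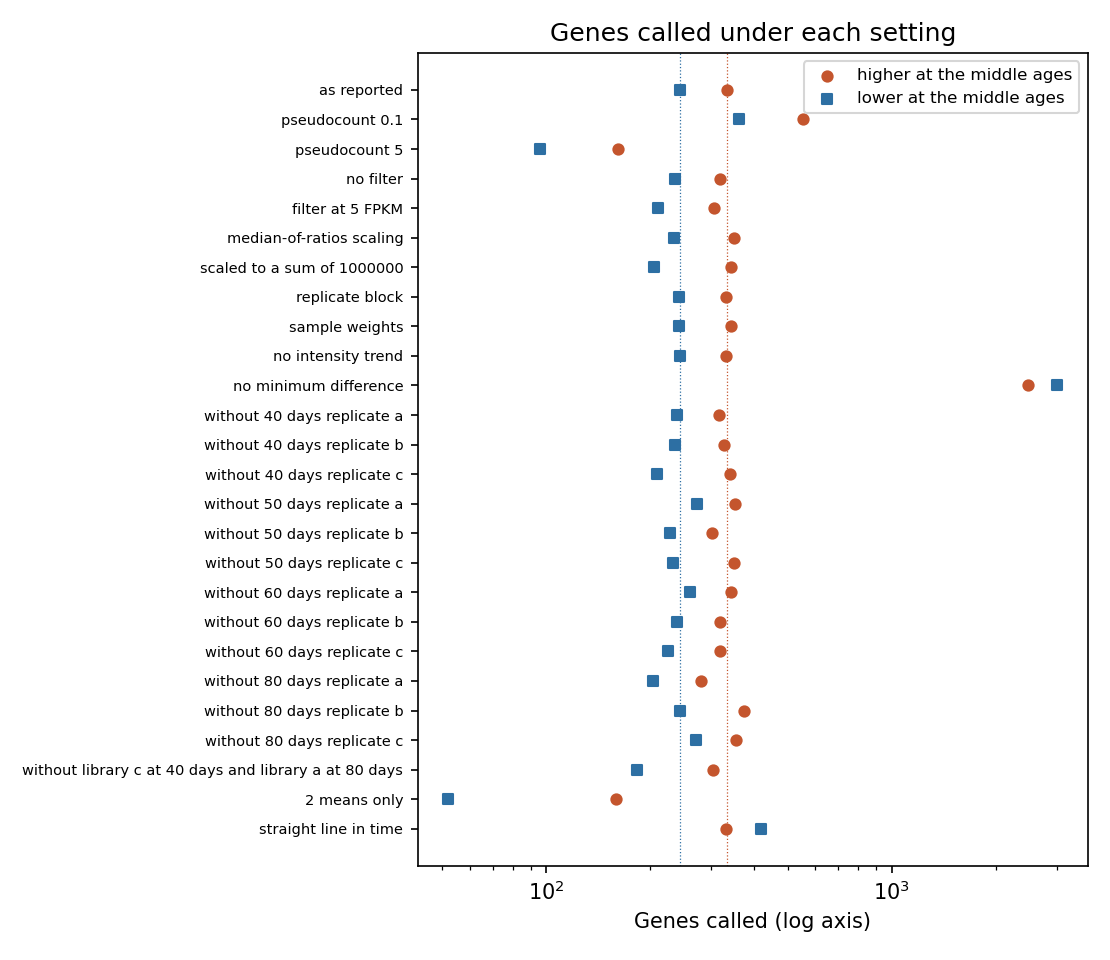
Genes called higher (circles) and lower (squares) at the middle ages under each setting, on a log axis, with dotted lines at the reported 333 and 244. Most settings stay near these lines, while the pseudocount, the minimum difference, the model with 2 means and, for lower genes, the straight line in time move away from them.

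Among 11 summaries per library, only the share of the single highest gene differed between middle and ends past adjustment. It was 7.0% ± 0.60 of the summed FPKM in the middle libraries and 8.69% ± 0.82 in the end libraries (SD, n = 6 each; exact two-sided permutation p = 0.0043, adjusted p = 0.048 over 11 measures, higher at the ends). The ranges overlapped slightly, 6.02% to 7.80% in the middle and 7.37% to 9.70% at the ends, and the highest gene was not the same ID in all libraries (4 IDs in all). The adjusted p went above 0.05 in 8 of the 12 exact tests with a library left out, where it reached 0.095. These were the tests without any 1 library of 40 or 60 days and without library b or c of 50 days. Genes of at least 100 FPKM numbered 1455 ± 35 in the middle and 1552 ± 85 at the ends (exact permutation p = 0.019, adjusted p = 0.11). By age, the ends had 1605 ± 79 at 40 days and 1498 ± 57 at 80 days (SD, n = 3). The effective number of genes, the exponential of the Shannon entropy of the FPKM shares, was 821 ± 130 in the middle and 937 ± 430 at the ends (exact permutation p = 0.53), with 1323 ± 108 at 40 days and 550 ± 56 at 80 days (SD, n = 3). The permutation treats the 6 libraries of a side as exchangeable, although they come from 2 ages.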

How the data were processed

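RNA sequencing libraries were made from polyadenylated RNA of grape fruit with a directional protocol, per the labels' protocols. The authors deposited 1 table of FPKM values. Cufflinks, TopHat2, edgeR, FastQC and Trimmomatic 0.36 are listed per the submitters' processing notes, with no step attached to any. Not given in the sources used here: genome build and annotation. All 12 value columns were matched to samples by description, and 0 were left over. None of the IDs (0 of 22580) matched the gene table used here (assembly ASM3070453v1), so the planned gene lists could not be filled. The members and lists were chosen with earlier results of these data known.

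FPKM values are not counts, so log2(FPKM + 1) was fitted with limma 3.58.1 in R 4.3.3, with 1 mean per age, an intensity trend and 8 residual degrees of freedom, in genes of at least 1 FPKM in at least 3 libraries. Differences of low genes are understated by the pseudocount. P-values were adjusted by Benjamini-Hochberg over all 14743 genes, and the fit was tested on simulated data. Library summaries used exact permutation over 924 choices of 6 libraries. Absolute depth is unknown; depth relative to library a at 40 days, read from steps among low values, was 0.853 to 1.75. Genes named had to be called, averaging 10 FPKM on the higher side, with no overlap of libraries; the 2 largest each way are given by ID and others by rank. Letters a, b and c showed no clear pairing of libraries (correlations of deviations -0.16 to 0.19, above 0.1 in 4 of 18 pairs), though the labels do not settle it. Alternatives covered pseudocount, filter, scaling, replicate block, sample weights, trend, minimum difference, 2 means, a straight line in time and each library left out; leaving out library c at 40 days with library a at 80 days was chosen after seeing the data.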

Additional observations from a re-analysis of the deposited data

Results flagged for a closer look

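Of 30 sides of 6 libraries examined (11 library summaries and the 4 genes given by ID), 1 held a value far from the others. A chance rate of about 1 in 20 holds for 6 libraries of a single group, but each side mixes different ages. Where those ages lie apart, the range is too wide for a single library to stand out. The effective number of genes, for example, was 1218 to 1434 at 40 days and 499 to 611 at 80 days. The scarcity of flags therefore does not show that no end library stood apart. In VIT_04s0008g01280, library c at 50 days had 2.95 FPKM, and its gap to the next middle library was 0.663 of the whole range of the 6. The gene's contrast without a single library was between -3.30 (without this library) and -2.91 (without library a at 80 days).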

How the results depend on the processing

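Counts stayed within 1.5 times their value with no filter, with the filter raised to 5 FPKM, under both scalings, with sample weights, without an intensity trend and without any single library (281 to 373 higher, 203 to 272 lower, 79 to 112 above and 23 to 34 below both ends). With the letter as a replicate block, 331 were higher and 242 lower, and no call of a gene given by ID changed. A pseudocount of 5 gave 161 higher and 96 lower, 44 above and 11 below both ends, 197 and 120 at 50 days and 232 and 183 at 60 days. A pseudocount of 0.1 gave 554 higher, 46 below both ends and 548 higher at 50 days. With no minimum difference the counts were 2484 and 3008, 523 and 433, 2228 and 2514, and 2172 and 2822, in the same order. The model with 2 means gave 159 and 52, all among the 333 and 244, and the straight line in time gave 417 lower. For the differences between these counts a cause was not tested, except that a larger pseudocount shrinks differences of low genes by construction. The 4 genes given by ID kept sign and call under 24 alternatives each, other than VIT_09s0002g00320 with 2 means (3.04, limma adjusted p = 0.060). Among the library summaries, middle minus ends with single libraries left out was -26.9 to 83.5 for genes of at least 1 FPKM, -122 to 36.5 for genes of at least 10 FPKM (89.2 when scaled to a sum of 1000000), -119 to -67.8 for genes of at least 100 FPKM (adjusted exact p 0.024 to 0.23, under 0.05 without library c at 80 days only), -1.96 to -1.49 percentage points for the highest gene (adjusted exact p 0.024 to 0.095), -0.0858 to 3.44 for the 100 highest, and -203 to -16.0 for the effective number of genes (-116 with all libraries). For genes of at least 100 FPKM, scaling to a sum of 1000000 changed the difference from -96.7 to -43 (adjusted exact permutation p = 0.71). Without counts, the precision that depth gives to a single value cannot be stated.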
